A study of Mus musculus with 6 samples.

Results

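The forkhead factor genes are described here by the chromatin regions that peak lists placed near them in embryonic mouse forelimb. The gene set is a given list of 40 members of the Fox family, and all 40 were found among 21701 protein-coding genes of the GENCODE vM21 annotation. For each gene, the regions of 8 peak lists within 2 kb (the promoter window) and within 20 kb of any of its annotated transcript starts were collected. The samples were 6 ChIP-seq libraries of wild-type B6CBAF1 forelimb buds at E12.5, cut into the distal forelimb (DFL), which forms the digits, and the proximal forelimb (PFL), which forms the arm. For each piece there was 1 library of H3K27ac, 1 of H3K27me3 and 1 of CTCF from pooled embryos, with no mutant or treated group. These libraries were reused from earlier publications, so the marks of a piece need not come from the same embryos. The 2 further lists, of HOXA13 and HOXD13 (together HOX13), came from whole forelimb buds of an earlier stage and belong to no sample of the series, so they allow no comparison of DFL with PFL. With 1 library per mark and piece there was no replicate and no test between DFL and PFL, and all intervals given cover counting error only.

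Forkhead factors are transcription factors that share a winged-helix DNA-binding domain, the forkhead box. The family is old and large. Some members act in most cells: FOXO factors are held out of the nucleus by insulin and AKT signalling, FOXM1 drives genes of mitosis, and FOXJ2, FOXJ3, FOXK1, FOXK2, FOXN2 and FOXN3 are widely expressed. Others define single lineages, such as FOXA factors in endoderm and liver, FOXE1 in thyroid, FOXE3 in lens, FOXL2 in ovary, FOXN1 in thymus, FOXP3 in regulatory T cells and FOXJ1 in cells with motile cilia, while FOXC, FOXF and FOXL1 factors act in mesenchyme. H3K27ac marks active promoters and enhancers. H3K27me3, placed by the Polycomb repressive complex, marks silenced developmental genes, and CTCF is a zinc finger protein that binds boundaries of chromatin loops.

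The H3K27ac lists held 59804 regions in DFL and 69503 in PFL, the H3K27me3 lists 9083 and 13873, and the CTCF lists 54673 and 52801. HOXA13 had 66761 regions and HOXD13 had 52660. The lists give no read totals, so the lowest local background that could be solved from the deposited values served as a stand-in for depth: 12.49 fragments in DFL and 11.88 in PFL for H3K27ac, 3.06 and 4.75 for H3K27me3, and 6.47 and 7.31 for CTCF. The authors report fewer sequenced reads in DFL than in PFL for each mark, and those totals were not used. For H3K27ac the lowest background thus ran the other way. A summit's fragment pileup divided by this lowest background of its library is called its multiple, and its fold is the pileup over the local background. Distances are from the nearest start of the gene, negative upstream. Of the marker genes for the pieces, 7 of 7 distal limb genes had promoter H3K27ac in DFL and also 7 of 7 in PFL, but their summed H3K27ac length within 20 kb was 58.4 kb in DFL and 40.7 kb in PFL. For 6 proximal limb genes it was 29.3 kb in DFL and 33.3 kb in PFL. Promoters of muscle genes carried H3K27ac at 1 of 5 in DFL and 5 of 5 in PFL, those of ectoderm genes at 5 of 5 and 2 of 5, of endothelium at 4 of 5 and 5 of 5, and of nerve and glia at 2 of 4 in each. Summed H3K27ac length was 2.66 kb in DFL and 12.1 kb in PFL near the muscle genes, 8.49 and 4.36 kb near ectoderm genes, 4.78 and 11.1 kb near endothelium genes and 3.58 and 3.77 kb near nerve and glia genes. Of 4 blood genes, 1 was acetylated in DFL and 0 in PFL, with no H3K27ac region at the promoters of Gata1, Hba-a1 and Spi1 in either. The part of these cell types in the values near forkhead genes was not tested, and in bulk tissue fewer marked cells cannot be told apart from less mark per cell.

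The first question was which forkhead promoters were acetylated, which carried H3K27me3 and which both. The state differed between DFL and PFL at 4 genes, and the others fell into 4 groups that were the same in both pieces. Over all genes, promoter H3K27ac was in DFL alone at 1.16% and in PFL alone at 3.59%. For H3K27me3 these shares were 0.475% and 4.01%, so calls in 1 piece alone were not particular to forkhead genes. H3K27ac alone was found in DFL and in PFL at 8 genes, Foxj2, Foxj3, Foxk1, Foxk2, Foxm1, Foxn2, Foxn3 and Foxo4 (20% of members, 95% Wilson interval 10.5 to 34.8%, against 46.7% of all genes). Both marks were found in both pieces at 9 genes, Foxa3, Foxc2, Foxh1, Foxj1, Foxo1, Foxo6, Foxp1, Foxp2 and Foxp4 (22.5%, 12.3 to 37.5%, against 7.95%). A state pools all starts of a gene, so both marks need not lie at the same start, and their overlap was not examined. H3K27me3 alone was found in both pieces at 11 genes, Foxa2, Foxb2, Foxd1, Foxd4, Foxe3, Foxi2, Foxi3, Foxl1, Foxl2, Foxn4 and Foxq1 (27.5%, 16.1 to 42.8%, against 6.01%). Neither mark had a region in either piece at Foxa1, Foxb1, Foxe1, Foxf1, Foxi1, Foxn1, Foxp3 and Foxs1 (20%, 10.5 to 34.8%, against 30.4%). The share with H3K27me3 alone was thus above that of all genes and the share with H3K27ac alone below it. At a −log10 q of at least 5, Foxa2 and Foxl2 lost H3K27me3 in DFL only, Foxc2 lost H3K27ac in DFL only, and Foxb2 and Foxp2 lost H3K27me3 in both pieces. With the gene's 5′ end alone, Foxp3 gained H3K27ac and Foxp1 lost H3K27me3, each in both pieces. With windows of 1 kb, Foxh1 lost H3K27ac and Foxp4 lost H3K27me3 in both pieces, and Foxb2 and Foxl2 lost H3K27me3 in DFL. With lists of equal size Foxb2 and Foxp2 lost H3K27me3 in PFL.

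**Figure D1:**
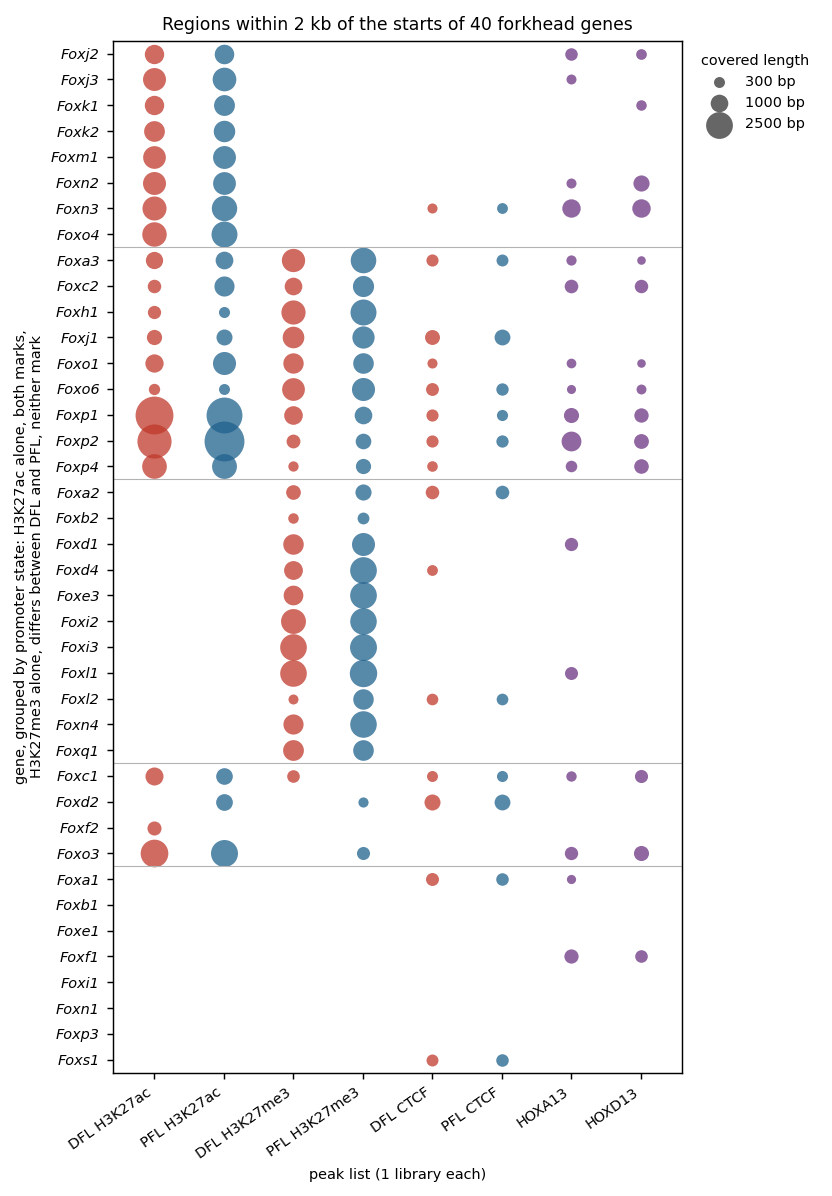
Regions within 2 kb of the starts of the 40 genes (rows, grouped by promoter state) in the 8 peak lists (columns, 1 library each). The area of a circle grows with the covered length in bp. The upper 8 genes have H3K27ac in both pieces and no H3K27me3, the next 9 have both marks, the next 11 have H3K27me3 without H3K27ac, 4 differ between DFL and PFL, and the lowest 8 have neither histone mark.

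**Figure D2:**
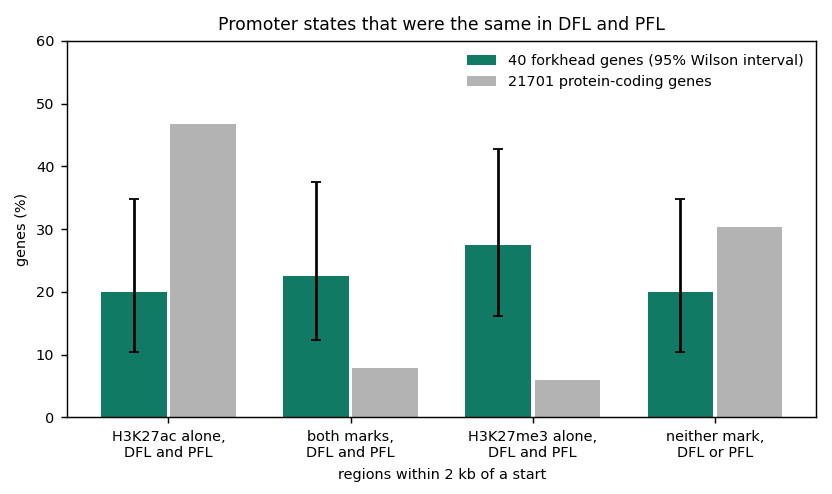
Percentage of genes in each promoter state that was the same in DFL and PFL, for the 40 forkhead genes (left bars, with 95% Wilson intervals) and for 21701 protein-coding genes (right bars). H3K27ac alone was found at 20% of the forkhead genes and 46.7% of all genes, and H3K27me3 alone at 27.5% and 6.01%.

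Mark by mark, the counts in DFL and PFL were close. H3K27ac lay at 20 of 40 members in DFL and 20 of 40 in PFL, against 59.2% and 61.6% of all genes, and at 19 members in both pieces, against 58.0%. A single member had it in DFL alone (1.16% of all genes) and a single member in PFL alone (3.59%). H3K27me3 lay at 21 members in DFL and 22 in PFL, against 16.6% and 20.2% of all genes, and at 20 in both, against 16.2%. It was in DFL alone at 1 member (0.475% of all genes) and in PFL alone at 2 (4.01%). Both marks were present at 10 members in DFL and 11 in PFL, against 8.84% and 12.8%.

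Subfamilies differed in how many of their promoters were acetylated. Of the 10 FOXJ, FOXK, FOXM and FOXN genes, 8 were acetylated in each piece, the exceptions being Foxn1 (thymus and hair follicle) and Foxn4 (retina and spinal cord). All 4 FOXO genes and 3 of 4 FOXP genes were acetylated in each piece, Foxp3 being the exception. Of the 7 FOXB, FOXD and FOXE genes, 0 were acetylated in DFL and 1 in PFL, whereas 4 carried H3K27me3 in DFL and 5 in PFL. Of the 5 genes Foxh1, Foxi1, Foxi2, Foxi3 and Foxl2, 1 was acetylated in each piece and 4 carried H3K27me3. Both FOXC genes were acetylated in both pieces. Several of these promoters are shared: Foxa3 starts within 2 kb of Sympk, Foxh1 of Ppp1r16a, Foxm1 of Rhno1 and Foxj3 of Frg2f1, so that their regions cannot be given to 1 gene. At Foxh1, the partner of Smad proteins in Nodal signalling, the strong H3K27ac region lay inside Ppp1r16a (fold over local background of 6.85 in DFL and 7.17 in PFL), with its summit at −1940 bp of the Foxh1 start in DFL and −1925 bp in PFL.

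The 4 genes whose promoter state differed were Foxf2, Foxd2, Foxc1 and Foxo3. Foxf2, which acts in the mesenchyme of palate and gut, had H3K27ac in DFL only. It had 2 regions there, at chr13:31626299-31626667 in an exon (690 bp after the start, fold 2.30, pileup 30 fragments) and at chr13:31627264-31627478 in an intron (1613 bp after the start, fold 2.22, pileup 29 fragments), against 0 regions in PFL. Both were weak, ranking 46520 and 49178 of 59804 by fold, and under a stricter −log10 q of at least 5 the promoter had none. No H3K27me3 region lay within 2 kb of Foxf2 in either piece. However, its highest H3K27me3 summit within 20 kb had 35.9 multiples in DFL and 33.5 in PFL. The local background there was 14.2 multiples in DFL and 15.7 in PFL. The lack of a promoter region therefore does not show that the mark was absent.

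Foxd2, a factor of kidney and facial mesenchyme, had the opposite pattern, with 0 H3K27ac regions within 2 kb in DFL against 3 in PFL. The highest PFL region, chr4:114907968-114908363 in the Foxd2 exon, had a fold of 3.20 and a pileup of 41 fragments, 3.45 multiples. The other two PFL regions had folds of 2.33 (in an exon of the antisense transcript Foxd2os) and 1.99. An H3K27me3 region of 237 bp was also called in PFL alone, with a low fold of 1.45 over a local background that was itself 20.1 multiples, and it was lost at a −log10 q of at least 5, with lists of equal size and with windows of 1 kb. Whether both marks were in the same cells was not tested.

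The 250 bases before the starts of these 2 genes are shown because they are the promoters acetylated in 1 piece only. The sequences are from RefSeq (GRCm38.p6, the mm10 assembly), read along the gene, with CpG dinucleotides in capitals.
Foxf2, chr13:31625566-31625815, plus strand: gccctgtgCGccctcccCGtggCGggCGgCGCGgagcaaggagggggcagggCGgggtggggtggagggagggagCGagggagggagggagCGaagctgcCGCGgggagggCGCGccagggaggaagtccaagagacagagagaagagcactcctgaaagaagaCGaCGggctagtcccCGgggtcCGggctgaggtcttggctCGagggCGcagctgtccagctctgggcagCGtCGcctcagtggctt
Foxd2, chr4:114908899-114909148, minus strand: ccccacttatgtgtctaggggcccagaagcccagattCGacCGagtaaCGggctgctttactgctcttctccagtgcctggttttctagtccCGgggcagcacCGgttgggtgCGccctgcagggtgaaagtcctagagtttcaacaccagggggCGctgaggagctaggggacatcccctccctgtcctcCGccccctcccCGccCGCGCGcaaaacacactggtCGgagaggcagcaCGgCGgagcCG
Foxf2 held 21 CpG in these bases and Foxd2 held 16.

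Foxc1, which patterns mesenchyme of skull, eye and somites, was acetylated in both pieces and had an H3K27me3 region in DFL alone, at chr13:31805702-31806144 (fold 1.72, 27.7 multiples over a local background of 16.0) that was lost at a −log10 q of at least 5. Its highest promoter H3K27ac summit reached 13.4 multiples in DFL and 18.5 in PFL, a DFL to PFL ratio of 0.72 (95% interval 0.59 to 0.89). The fold of the same summits ran the other way, 2.64 in DFL and 1.96 in PFL, over a local background of 5.02 multiples in DFL and 9.41 in PFL. Foxo3, a FOXO factor of stress response and cell survival, was acetylated in both pieces, with 5 DFL regions within 2 kb and 5 in PFL, and had H3K27me3 in PFL alone. That region, chr10:42274077-42275178, had a fold of 5.62, rank 236 of 13873 in PFL, and most of it lay beyond the promoter window, so it was lost when the highest summit had to fall inside and with windows of 1 kb.

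Presence of a region does not measure level, so the highest summit near each gene was set side by side in DFL and PFL. Of 19 genes with promoter H3K27ac summits in both pieces, the median DFL to PFL ratio of multiples was 0.92, against 0.90 over 12527 genes. The intervals of 15 members included 1, those of Foxc1, Foxc2, Foxo3 and Foxp2 lay below it, and 0 lay above it, against 21.1% of all genes with an interval below 1 and 2.39% above it. The share of members below 1 was thus near that of all genes. Set against the median over all genes, 0.90, the intervals of Foxc1, Foxc2 and Foxp2 lay below it and those of Foxk2, Foxo1 and Foxp4 above it. Foxc2, a factor of lymphatic vessels and axial mesenchyme, differed most. Its promoter summit had a pileup of 33 fragments in DFL, 2.64 multiples, against 82 fragments in PFL, 6.90 multiples, a ratio of 0.38 (0.25 to 0.58), which was lower than in all but 0.32% of the genes. Its acetylated promoter length was 526 bp in DFL and 1344 bp in PFL. Foxc2 also carried H3K27me3 in both pieces, at 31.3 multiples in DFL and 28.7 in PFL, with a ratio of 1.09 (0.83 to 1.43) whose interval includes 1. At a −log10 q of at least 5 its DFL H3K27ac region was lost. The summed H3K27ac length was also lower in DFL near endothelium markers, 4.78 kb against 11.1 kb in PFL, and near muscle markers, 2.66 against 12.1 kb. Near ectoderm markers it was higher in DFL, 8.49 against 4.36 kb, and near nerve and glia markers it was close, 3.58 against 3.77 kb. The part of these cell types in the Foxc2 values was not tested.

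Foxp2, known for its part in speech circuits and also in lung, had 17.1 H3K27ac multiples in DFL and 23.4 in PFL (ratio 0.73, 0.61 to 0.88). As at Foxc1, the fold at Foxp2 ran the other way, 3.90 in DFL and 3.23 in PFL, over local backgrounds of 4.34 multiples in DFL and 7.21 in PFL. Foxo3 had 22.4 in DFL and 26.6 in PFL (0.84, 0.71 to 0.99), with an interval that includes the median over all genes. At the upper end, Foxo1 had 10.5 in DFL and 8.33 in PFL (1.26, 0.96 to 1.65), with an interval that includes 1. At the 8 genes with H3K27ac alone the ratio ran from 0.82 (Foxo4, 0.64 to 1.04, and Foxj2, 0.66 to 1.013) to 1.17 (Foxk2, 0.94 to 1.47), and all 8 intervals included 1. Foxk2 had 14.7 multiples in DFL and 12.54 in PFL, and Foxo4 had 10.65 in DFL and 13.05 in PFL.

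**Figure D3:**
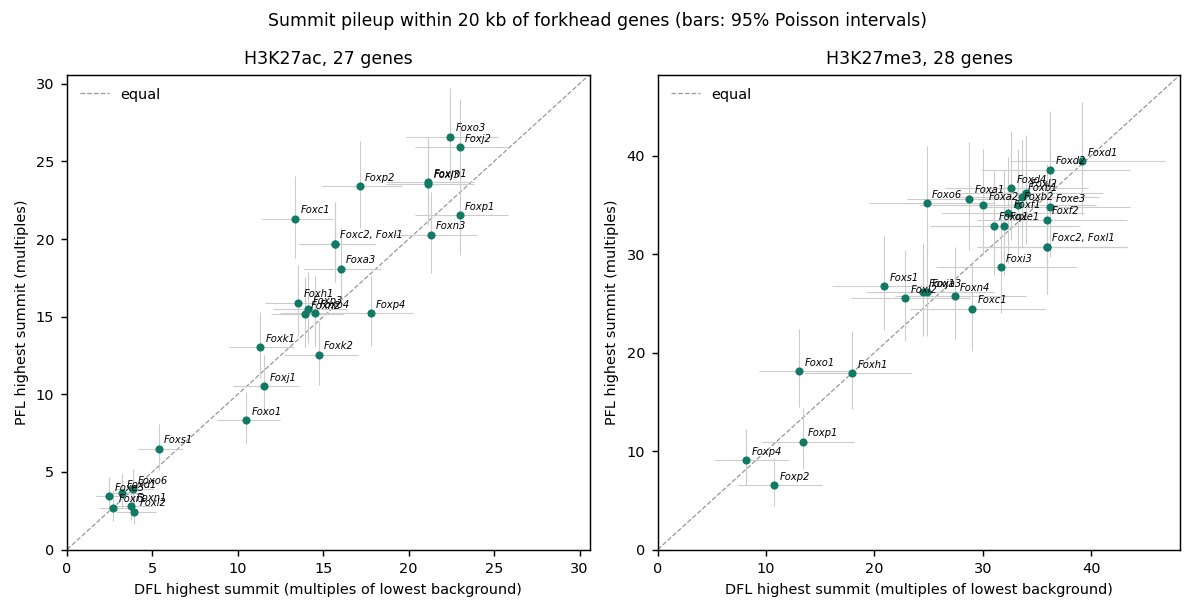
Highest summit within 20 kb of each gene in DFL (x axis) and PFL (y axis), in multiples of the library's lowest background, for 27 genes with H3K27ac (left) and 28 with H3K27me3 (right) in both pieces. Bars are 95% Poisson intervals, and the dashed line marks equal values. Foxc1 lies at 13.4 in DFL and 21.3 in PFL for H3K27ac, and most H3K27me3 points lie between 20 and 40 on both axes, with Foxh1 and the FOXO and FOXP genes Foxo1, Foxp1, Foxp2 and Foxp4 lower.

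H3K27me3 pileup and fold ordered the promoters with H3K27me3 alone and with both marks in opposite ways. At the 11 genes with H3K27me3 alone, the highest promoter summit ran between 22.8 multiples (Foxi2) and 39.2 (Foxd1) in DFL and between 25.5 (Foxi2) and 39.4 (Foxd1) in PFL. At the 9 genes with both marks it ran between 10.8 (Foxp2) and 31.3 (Foxc2) in DFL, where Foxp4 had no summit inside the window, and between 6.53 (Foxp2) and 28.7 (Foxc2) in PFL. The 2 groups overlapped, in DFL through Foxc2, Foxa3, Foxj1 and Foxo6 and in PFL through Foxc2, Foxa3 and Foxj1. The median pileup was 31.0 multiples with H3K27me3 alone and 21.2 with both marks in DFL, and 33.5 and 18.1 in PFL. The local background at these summits was also higher with H3K27me3 alone, with medians of 14.5 against 4.49 multiples in DFL and 14.4 against 3.89 in PFL. The highest promoter fold was lower, with medians of 2.42 against 3.86 in DFL and 2.18 against 3.86 in PFL. Foxp1 and Foxp2 had 13.4 and 10.8 multiples in DFL, against 8.01 and 6.53 in PFL. Their ratios were 1.67 (1.05 to 2.67) at Foxp1, whose interval lay above 1, and 1.65 (0.98 to 2.78) at Foxp2. Of 19 members with promoter H3K27me3 summits in both pieces, the intervals of 18 included 1 and 0 lay below it. Over all genes, 3.15% had an interval above 1 and 6.38% below it. Within 20 kb the Foxp1 ratio was 1.22 (0.79 to 1.87). The highest promoter fold of Foxp1 was 3.801 in DFL and 3.856 in PFL, the local background at its highest summit was 5.41 multiples in DFL and 1.92 in PFL, and with the gene's 5′ end alone it had no promoter H3K27me3.

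A narrow region is called only where it stands above its surroundings, so the local background matters for the genes with no region. Around the 5 genes Foxa1, Foxb1, Foxe1, Foxf1 and Foxs1, which had neither mark within 2 kb, H3K27me3 summits within 20 kb reached 20.9 to 33.6 multiples in DFL and 26.8 to 35.8 in PFL. The background at these summits was 5.41 to 20.6 multiples in DFL and 7.68 to 24.3 in PFL, against a median over all summits of 4.18 in DFL and 3.87 in PFL. The folds had a median of 1.88 in DFL and 1.74 in PFL. The lack of an H3K27me3 region at these promoters does not show that the mark was absent there. Foxi1, Foxn1 and Foxp3 had no H3K27me3 region within 20 kb in either piece.

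Within 20 kb, the members with H3K27ac numbered 30 in DFL and 29 in PFL, against 71.2% and 73.9% of all genes. H3K27me3 was near 28 members in DFL and 30 in PFL, against 26.0% and 31.5%. Both marks were near 19 members in DFL and 20 in PFL, against 20.2% and 26.4%. Foxi1, a factor of inner ear and kidney, was the single member with neither mark in either piece, against 20.1% of all genes. Not all of this was the members' own: 22 of 113 H3K27ac regions in DFL and 24 of 116 in PFL lay at promoters of other genes, among them all 3 DFL and all 4 PFL regions near Foxp3. With each region counted once, since windows of neighbouring genes overlap, 113 H3K27ac regions in DFL covered 68590 bp of the windows and 116 in PFL covered 74995 bp. DFL thus held 47.8% of the H3K27ac length near forkhead genes, against 45.3% over the genome. For H3K27me3 there were 73 regions in DFL (54.6 kb) and 122 in PFL (86.9 kb), a DFL share of 38.6% near the members and 39.1% over the genome. With lists of equal size the share near the members was 45.1%, and the share over the genome was not recomputed.

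H3K27ac length was greater in DFL at 11 members and greater in PFL at 20 (27.5% and 50% of members, against 18.1% and 57.2% of all genes). The 5 largest differences towards DFL were at Foxp1 (11616 bp in DFL and 9925 bp in PFL), Foxj1 (2557 and 1571 bp), Foxf2 (584 and 0 bp), Foxh1 (3211 and 2845 bp) and Foxq1 (227 and 0 bp). Foxp1, a factor of lung, heart and motor neurons, has 6 annotated starts, so its windows cover more sequence than those of a gene with 1. It had 19 H3K27ac regions in DFL, of which 7 met no PFL region, and 16 in PFL, of which 4 met no DFL region. Foxj1, the master factor of motile cilia, had 3 DFL regions in intergenic sequence at 5419, 5917 and 6545 bp beyond its start, of 3.76, 4.40 and 3.44 multiples, against 1 in PFL at 5330 bp of 2.19 multiples. The region at 6545 bp met both HOX13 lists. At the Foxj1 promoter itself the summits were 11.5 multiples in DFL and 10.5 in PFL (ratio 1.10, 0.86 to 1.40). The direction was not kept at every gene: at a −log10 q of at least 5 Foxh1 was longer in PFL and Foxf2 and Foxq1 had no DFL region, and with windows of 50 kb Foxp1 and Foxh1 were longer in PFL.

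The 5 largest differences towards PFL were at Foxn3 (2847 bp in DFL and 4631 bp in PFL), Foxp2 (4488 and 6145 bp), Foxc2 (1793 and 3162 bp), Foxl1 (1392 and 2631 bp) and Foxc1 (3774 and 4719 bp). Foxn3, a checkpoint suppressor, had 4 PFL regions that met no DFL region, among them 1 of 1274 bp in an intron at −13501 bp (fold 3.26, 41 fragments) and 1 of 646 bp at −17932 bp (fold 3.75, 53 fragments). The first of these overlapped regions of both HOX13 lists. Foxl1, a factor of gut mesenchyme, starts 11769 bp from Foxc2 and had no H3K27ac region of its own: both members shared a region at the Mthfsd promoter (fold 8.77 in DFL and 9.47 in PFL) and those at Foxc2. Foxf1 lies 31785 bp from Foxc2 in the same cluster and was acetylated only at the edge of its window, over 91 bp in DFL and 111 bp in PFL.

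**Figure D4:**
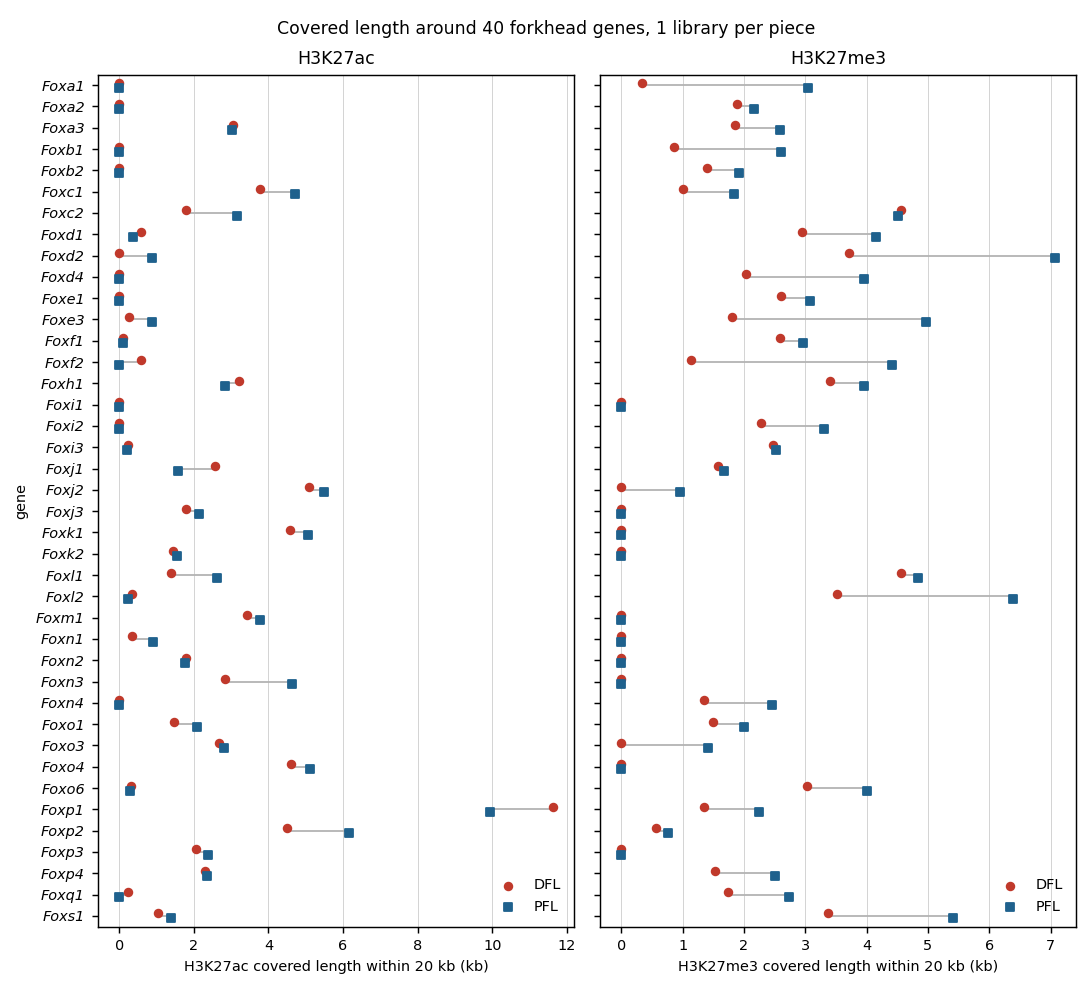
Length covered by H3K27ac (left) and H3K27me3 (right) within 20 kb of each gene's starts, in kb, for DFL (circles) and PFL (squares), 1 library each. Foxp1 has the most H3K27ac, 11.6 kb in DFL and 9.93 kb in PFL, and the H3K27me3 squares lie right of the circles at 29 of the 30 genes with the mark.

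H3K27me3 length within 20 kb was greater in DFL at 1 member, Foxc2 (4568 bp in DFL and 4515 bp in PFL), and greater in PFL at 29 (2.5% and 72.5% of members, against 3.54% and 28.6% of all genes). Over all genes it was greater in DFL at 768 and in PFL at 6202, so most genes with the mark had that direction. The 5 largest differences were at Foxd2 (3707 bp in DFL and 7067 bp in PFL), Foxf2 (1134 and 4412 bp), Foxe3 (1811 and 4962 bp), Foxl2 (3523 and 6379 bp) and Foxa1 (332 and 3037 bp). Foxd2 and Foxe3 start 17140 bp apart and share regions. Summit heights were closer in the pieces than these lengths. Over 28 members the highest H3K27me3 summit had a median DFL to PFL ratio of 0.95, against 0.94 over 5495 genes, and the intervals of 27 included 1. The exception was Foxo6, a FOXO factor of brain, with 24.8 multiples in DFL and 35.2 in PFL (0.70, 0.53 to 0.93), against 6.26% of all genes with an interval below 1 and 2.42% above it. The PFL value came from a summit outside the promoter window. At the Foxo6 promoter H3K27me3 had 24.8 multiples in DFL and 25.1 in PFL (0.99, 0.73 to 1.33). At Foxf2 the summits were 35.9 multiples in DFL and 33.5 in PFL, and at Foxd2 36.2 and 38.6. The PFL list is also longer and its lowest background higher, and with DFL and PFL lists of equal size the length was greater in DFL at 9 members and in PFL at 21, so depth and tissue cannot be told apart in these lengths.

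**Figure D5:**
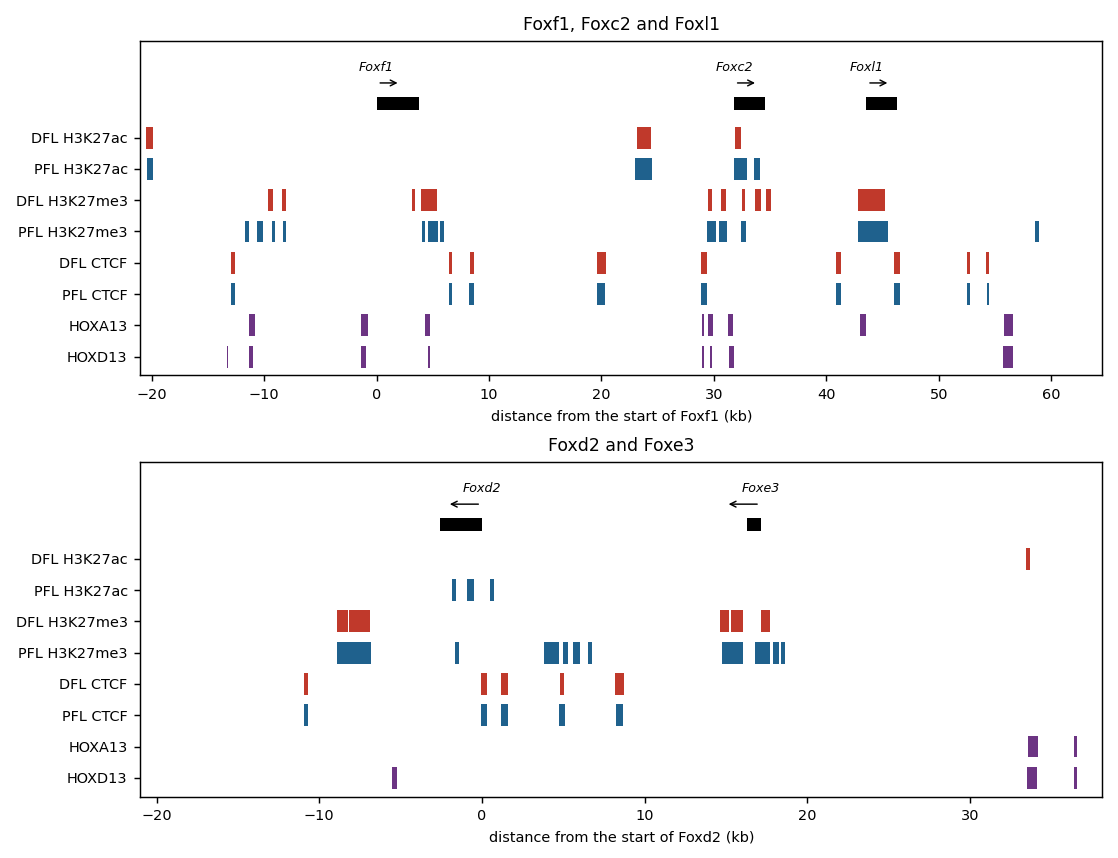
Regions of the 8 lists across the Foxf1, Foxc2 and Foxl1 cluster (top) and the Foxd2 and Foxe3 pair (bottom), by distance in kb from the start of the first gene, DFL above PFL for each mark. Black bars are genes with an arrow for the direction of transcription. At the Foxc2 promoter H3K27ac covers 526 bp in DFL and 1344 bp in PFL, and the 3 H3K27ac regions at Foxd2 are in PFL only.

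Most H3K27ac regions near forkhead genes were called in both pieces. Of the 113 DFL regions, 93 met a PFL region (82.3%, 95% Wilson interval 74.2 to 88.2%), against 73.3% of all DFL regions. Of the 116 PFL regions, 90 met a DFL region (77.6%, 69.2 to 84.2%), against 61.9%. At promoters the shares were 50 of 54 in DFL and 47 of 55 in PFL. Between 2 and 20 kb they were 43 of 59 in DFL (72.9%, 60.4 to 82.6%) and 43 of 61 in PFL (70.5%, 58.1 to 80.4%). Both of these intervals include the share of all regions, which does not show that an excess was absent there. The share over promoter regions of all genes was not computed, so no excess at forkhead promoters is shown. Over all genes, promoter H3K27ac was also mostly in both pieces, at 12591 genes, against 12843 in DFL and 13371 in PFL. The 20 DFL regions that met none in PFL lay nearest to 10 members, and the 26 of PFL nearest to 14. A HOX13 region overlapped 5 of the 20 (25%, 11.2 to 46.9%, against 32.5% of all such DFL regions), 27 of the 93 shared ones (29.0%, 20.8 to 38.9%, against 40.9%) and 2 of the 26 of PFL alone (7.69%, 2.14 to 24.1%, against 12.53%). The share was lowest at regions of PFL alone both near the members and over the genome.

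HOX13 regions lay at 18 of 40 forkhead promoters, a share whose interval includes that of all genes. HOXA13 lay within 2 kb of 17 members (42.5%, against 31.7%), HOXD13 of 14 (35%, against 28.7%), both of 13 (32.5%, against 22.9%) and either of 18 (45.0%, 95% Wilson interval 30.7 to 60.2%, against 37.5%). Within 20 kb, 33 members had a region of either (82.5%, 68.05 to 91.3%, against 65.3%), an interval above the share of all genes. That interval takes the members as independent, although the windows of neighbours such as Foxc2 and Foxl1 overlap. All 3 acetylated FOXP genes and 3 of 4 FOXO genes were among the 18, as were Foxc1, Foxc2 and the unacetylated Foxa1, Foxd1, Foxf1 and Foxl1. With a −log10 q of at least 5, HOXA13 lay at 9 promoters (18.4% of all genes), HOXD13 at 9 (16.5%) and either at 12 (22.8%), and the promoters of Foxa1, Foxa3, Foxd1, Foxk1, Foxl1 and Foxo1 were lost.

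The highest HOX13 regions within 20 kb lay at Foxe3. The HOXA13 region chr4:114942440-114943025 had a fold of 12.9 and ranked 981 of 66761, and the HOXD13 region chr4:114942396-114943018 had a fold of 11.5 and ranked 1130 of 52660. Their summits lie in intergenic sequence at −16721 and −16748 bp of Foxe3, the gene of lens epithelium, whose own promoter had H3K27me3 alone. An H3K27ac region met them in DFL (chr4:114942308-114942582, fold 2.37, 31 fragments) and none in PFL, but it was lost at a −log10 q of at least 5. The next highest HOXA13 folds were 9.45 at Foxn3 and 8.12 at Foxa3, where the summit lay at 16965 bp in an exon of Irf2bp1. The next highest HOXD13 folds were 8.10 at Foxn3 and 7.92 at Foxo4, where the region (chrX:101260497-101261214) lay in an exon of Foxo4 itself. At Foxo3 the folds were 7.22 for HOXA13 and 7.37 for HOXD13, at −1276 and −1250 bp, under the highest H3K27ac summit of the gene in both pieces.

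Windows of the summit base with 50 bases to each side are shown for HOX13 regions of high fold. They are the plus strand of mm10, and capitals mark the HOX13 letters CAATAAA on either strand.
Foxn3 (HOXA13), chr12:99392217-99392317: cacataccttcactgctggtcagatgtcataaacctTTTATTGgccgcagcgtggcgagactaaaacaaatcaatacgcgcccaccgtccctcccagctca
Foxo3 (HOXD13), chr10:42277955-42278055: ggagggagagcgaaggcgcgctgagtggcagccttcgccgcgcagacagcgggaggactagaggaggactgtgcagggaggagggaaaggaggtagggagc
Foxe3 (HOXA13), chr4:114942684-114942784: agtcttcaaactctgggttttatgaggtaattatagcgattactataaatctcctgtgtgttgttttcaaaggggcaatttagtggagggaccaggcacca
The Foxn3 window held 1 match, on the minus strand, from −14 to −8 of the summit. The Foxo3 and Foxe3 windows held 0. Of all windows of this length, 10.7% held the letters at HOXA13 summits and 11.9% at HOXD13 summits, against 0.849% at DFL H3K27ac summits. Windows were taken by fold among members matched to RefSeq promoters, passing over those with UTR bases, and the Foxe3 window, which lies outside the promoter windows, was added after its values had been seen.

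CTCF lay within 2 kb of 15 members in DFL (32.8% of all genes) and 12 in PFL (32.0%), and 12 had it in both pieces (30.0%). The 3 with DFL alone were Foxd4, Foxo1 and Foxp4, with pileups of only 23, 21 and 31 fragments. Within 20 kb, CTCF was near 36 members in DFL (90%, 95% Wilson interval 76.9 to 96.0%, against 73.8% of all genes). In PFL it was near 38 (95%, 83.5 to 98.6%, against 72.9%), and both intervals lay above the share of all genes. These intervals take the members as independent, although neighbours such as Foxc2 and Foxl1 or Foxd2 and Foxe3 have overlapping windows. The highest CTCF fold was at −13939 bp of Foxc1, at chr13:31792421-31793002 in DFL (fold 22.1, rank 81 of 54673) and chr13:31792418-31792990 in PFL (fold 21.6, rank 67 of 52801). Foxf2, on the same chromosome, came next with 19.1 in DFL and 17.9 in PFL at 6859 bp, and in DFL Foxj2 followed with 18.9, against 17.0 in PFL, in its own intron. The highest CTCF summit within 20 kb had a median DFL to PFL ratio of 1.15 over 36 members, against 1.10 over 15407 genes, and 29 of the 36 intervals included 1. The other 7, Foxb1, Foxd1, Foxi2, Foxj2, Foxo3, Foxo6 and Foxq1, lay above 1, as did 11% of all genes, with 0.792% below 1. Of these 7, the interval of Foxd1 alone lay above the median over all genes.

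Within promoters, the highest CTCF folds were at Foxo6 (15.3 in DFL and 16.5 in PFL), Foxa2 (14.3 and 15.3), Foxs1 (12.49 and 11.53) and Foxd2 (9.87 and 9.85). At Foxd2 the CTCF summit lay in the Foxd2 promoter sequence shown, at −136 bp in DFL and −134 bp in PFL, with 32.0 multiples in DFL and 27.1 in PFL. CTCF was thus called there in both pieces and H3K27ac in PFL only. Windows of the same length around CTCF summits are shown for 2 promoters and, added after its values had been seen, for the highest region of the family, as the plus strand of mm10, with the letters AGGNGGC, a short core of the CTCF motif chosen after the windows were read, in capitals on either strand.
Foxa2 (PFL CTCF), chr2:148048590-148048690: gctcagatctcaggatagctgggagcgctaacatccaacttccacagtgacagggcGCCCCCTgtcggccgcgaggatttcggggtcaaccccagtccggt
Foxd2 (DFL CTCF), chr4:114908959-114909059: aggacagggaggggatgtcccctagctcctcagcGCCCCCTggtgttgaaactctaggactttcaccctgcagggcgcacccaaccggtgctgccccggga
Foxc1 (DFL CTCF), chr13:31792644-31792744: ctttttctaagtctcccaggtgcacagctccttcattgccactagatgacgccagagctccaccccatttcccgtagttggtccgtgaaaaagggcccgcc
These letters occurred in 29.7% of DFL and 30.1% of PFL windows of this length around CTCF summits, and in 9.43% of windows around DFL H3K27ac summits. The longer letters CCANNAGNNGGC, found in 36.5% of DFL and 36.6% of PFL windows, were in 0 of the 3 as an exact match. Near matches were not searched for, so a window without capitals is not shown to lack a CTCF motif.

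The promoters also differed in CpG content. RefSeq promoter sequences (250 bases before to 50 after a start) matched 25 members, of which 22 started within 2 kb of the GENCODE start. Their median was 24 CpG in 300 bases, against 7 over 32851 promoters. The 9 matched genes with H3K27me3 alone had a median of 12 (5 at Foxi2 to 31 at Foxi3), the 4 with both marks 26.5 (13 at Foxp1 to 33 at Foxp4), and the 2 with H3K27ac alone 37 (Foxj2) and 59 (Foxk2). The 4 genes whose state differed between the pieces had 26 to 35. Of the 3 with neither mark, Foxa1 had 26, Foxi1 had 6 and Foxn1 had 8. These counts are a description over few genes, and the groups overlap.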

How the data were processed

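The 8 peak lists of narrow regions on mm10 were used as the authors deposited them. Per the labels, reads were trimmed with cutadapt, aligned with Bowtie, filtered with SAMtools and called with MACS2, separately for each library, and the methods name no input control. The deposited fold (a ratio of summit pileup to local background), the −log10 p and −log10 q of each summit and the score, which is the −log10 q scaled to a whole number, were all made by the authors' peak caller. From fold and −log10 p the pileup and local background of each summit were solved by whole-number search within 0.001 in −log10 p, which succeeded for nearly all lines. Overlapping lines of a list, such as several summits of 1 interval, were joined into 1 region. Members were matched by symbol to GENCODE vM21, 54 genes with a repeated symbol were left out, and windows of 2 kb and 20 kb were taken around every start of the basic annotation. A region was called shared where it overlapped a region of the other piece by at least 1 bp. Shares have 95% Wilson intervals, and ratios of pileups exact intervals from counts. The read totals are not given in the lists and those the authors report were not used, so depth enters only through the lowest background.

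The named genes were all members by promoter state, those whose state differed between the pieces, the 5 with the largest difference in covered length in each direction and mark, and those with the highest folds of CTCF and HOX13. The members and the lists were chosen with earlier results of these data known. Alternatives were a −log10 q of at least 5, lists of equal size, other windows, regions merged within 1 kb, the summit or the 5′ end alone, and other scalings of the pileup. Python 3.11.15, pandas 2.3.3, scipy 1.17.1 and statsmodels 0.14.6 were used, and the scripts were tested on simulated data.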

Additional observations from a re-analysis of the deposited data

How the results depend on the processing

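No paired analysis was possible because each mark had 1 library per piece, and for the same reason no replicate could be left out. Of 220 values under alternatives, 200 were labelled the same and 20 moved. A count was the same within 1.5 times of the reported one. A share of length was the same within a Wilson interval that took the number of regions as its sample size. A median ratio was the same between the median lower and upper ends of the members' intervals. These limits are wide: with lists of equal size the DFL share of H3K27me3 length, 45.1% against the reported 38.6%, was labelled the same. With windows of 1 kb, 7 members had both marks in PFL. With windows of 50 kb there were 202 H3K27ac regions in DFL and 225 in PFL, of which 160 in each were shared, and H3K27me3 was longer in DFL at 0 members. With regions within 1 kb merged there were 67 H3K27ac regions in DFL and 71 in PFL, 56 of each shared, 67 H3K27me3 regions in PFL, and H3K27me3 was longer in DFL at 3 members. At a −log10 q of at least 5 there were 38 H3K27me3 regions in DFL and 67 in PFL, with 36 and 35 shared, and HOXA13 and HOXD13 lay at 9 promoters each. With lists of equal size there were 70 H3K27me3 regions in PFL, and H3K27me3 was longer in DFL at 9 members. These settings change how many regions enter or how they are counted.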
